A study of Bos taurus with 19 samples.

Results

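The RNA of 8 genes of the Wnt pathway was followed across the theca interna of bovine antral follicles, and 2 of these genes differed between follicle groups after adjustment over all probe sets tested. CCND1, near the detection limit, was lower in small atretic follicles than in small healthy ones, and FZD1 was higher on 1 of its 2 probe sets. In this comparison 31.9% of all probe sets tested passed, beside 22.2% (2 of 9) of those of these genes. Against the small healthy follicles with rounded granulosa cells alone neither difference passed, and 1.6% of all probe sets tested did. Against those with columnar granulosa cells alone both passed, as did 32.0% of all probe sets tested. The genes were CTNNB1, FZD1, FZD4, LEF1, AXIN2, GSK3B, CCND1 and MYC, and their members on the array were the probe sets whose only gene symbol in the annotation was one of these names. This gave 8 of the 9155 genes named on the array and 12 of its 24127 probe sets, 3 for GSK3B, 2 each for FZD1 and FZD4, and 1 for each other gene.

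The theca interna is the layer of steroid-producing cells, fibroblasts and vessels that surrounds the granulosa cells of an ovarian follicle. The groups were small atretic follicles (5 arrays), large healthy follicles (4 arrays), small healthy follicles with rounded granulosa cells (5 arrays) and small healthy follicles with columnar granulosa cells (5 arrays). Small follicles measured 3 to 5 mm and large follicles over 9 mm. All came from non-pregnant Bos taurus heifers after slaughter, and the granulosa cells were scraped away before the theca was dissected. Each array held 1 follicle, and nothing in the sources used here ties each follicle to an animal of its own. The p-values weigh mean differences against the spread between follicles, taken as independent. They could be too small if follicles shared an animal. Atresia is the degeneration that ends the growth of most follicles, and it was judged on the histology of a piece of follicle wall. The rounded and columnar labels describe the granulosa cells lying against the theca, not thecal cells.

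In canonical Wnt signalling a Wnt protein binds a Frizzled receptor, and a complex of axin proteins, APC and the kinase GSK3B then stops marking β-catenin for destruction. β-catenin accumulates, enters the nucleus and acts with LEF1 and other TCF factors on target genes, among which AXIN2, CCND1 and MYC are commonly used readouts. β-catenin also joins cadherins to the cytoskeleton, and much of its control lies in protein stability, which an array of RNA does not measure. In the ovary the pathway is best known for its roles in gonad development and in granulosa cells.

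RNA extraction followed the groups. According to the sample records, RNA of large follicles was taken with Trizol and RNeasy columns, that of small atretic follicles with RNAqueous Micro columns and that of small healthy follicles with RNeasy mini columns. The amount labelled was 0.25 µg for atretic and 2 to 5 µg for healthy follicles. The study's methods, which concern healthy follicles only, describe 1 extraction with Trizol and RNeasy columns. For small healthy follicles the records and the methods therefore differ, and for atretic ones the methods describe no extraction. The methods also give a smaller amount of labelled RNA than the records. On the records, kit and group cannot be told apart in any comparison except rounded with columnar follicles. The poly-A control transcripts averaged 4.88 ± 0.327 in atretic (SD, n = 5), 6.02 ± 0.288 in large (n = 4) and 4.68 ± 0.245 in small healthy follicles (n = 10) on the log2 scale. Their difference between large and small healthy follicles was 1.34 (two-sided exact permutation test, p = 9.99e-04, 0.0160 after adjustment over 16 such comparisons). Array medians lay between 3.8 and 3.9, no 2 arrays were identical, and array depth is not a property of these data. The number of arrays limits the precision. All 7 steroidogenic theca genes looked for were detected. CYP19A1, the granulosa cell enzyme that makes oestrogen, stood over the detection limit on 4 of the 19 arrays, with log2 signals of 5.8, 3.7 and 3.3 in large replicates 2, 3 and 4 and 3.9 in columnar replicate 1.

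Values are log2 signals as deposited, so a difference of 1 is 2-fold. Detection required a signal above 3 in 50% or more of the follicles in any single group, and levels are compared between groups for the same probe set only. Of the 12 member probe sets, 10 were detected over the 4 groups. The other two were FZD4 probe set Bt.16492.1.A1_at, at 1.6 to 2.2 over the 19 arrays, and GSK3B probe set Bt.18853.1.A1_at, at 1.3 to 1.7. Each of the 8 genes kept at least 1 detected probe set. A difference "passed" when its p from limma, adjusted by Benjamini and Hochberg over all probe sets tested, was under 0.05.

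**Figure D1:**
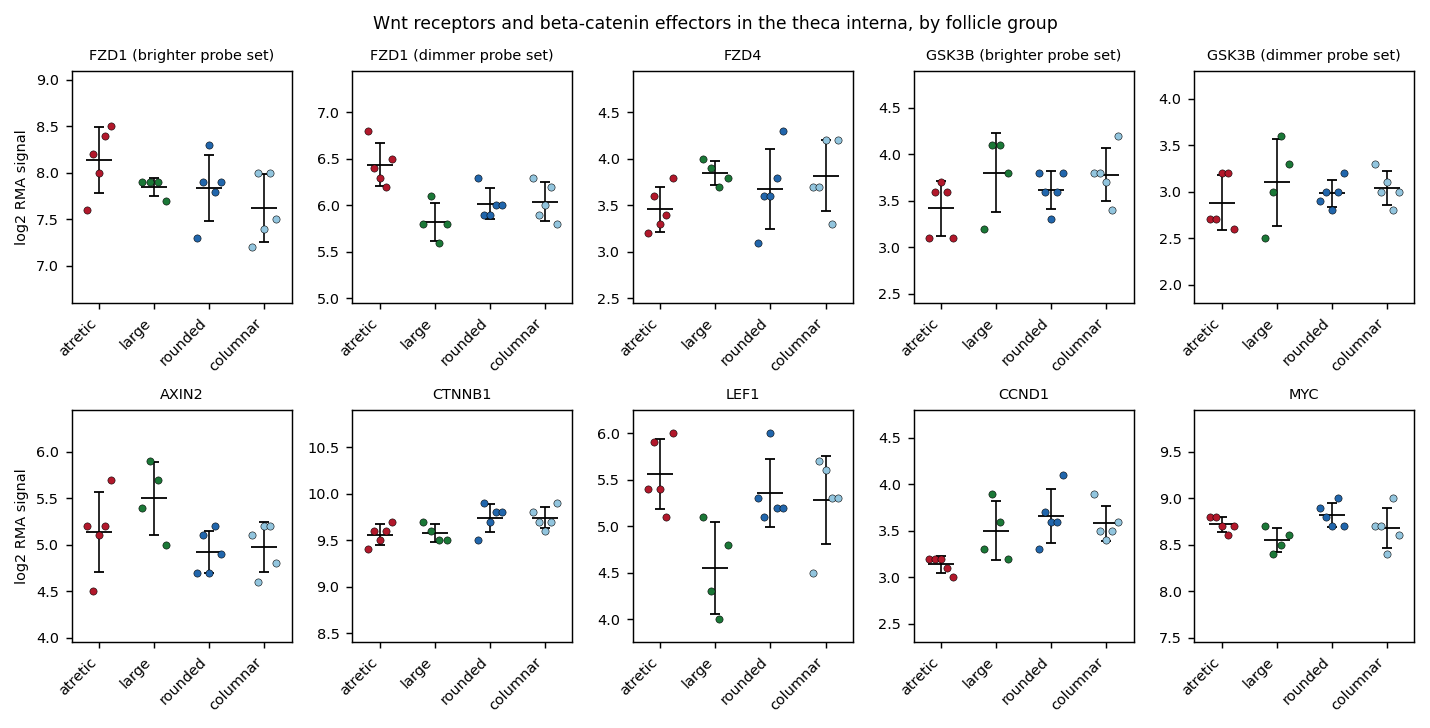
Log2 signal (vertical axis) of the 10 detected member probe sets on each of the 19 arrays (points), by follicle group, with the group mean and SD (bars, n = 5, 4, 5 and 5). All panels span the same log2 range; CCND1 lies lowest in atretic and LEF1 in large follicles, while CTNNB1 spans 0.5 over all arrays.

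FZD1 and FZD4 are Frizzled proteins, the membrane receptors that Wnt ligands bind. FZD4 is also a receptor for norrin in blood vessels. FZD1 was read by a brighter probe set (Bt.26635.2.S1_at) and a dimmer one (Bt.26635.1.S1_at).

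On the dimmer FZD1 probe set, atretic follicles gave 6.8, 6.4, 6.3, 6.2 and 6.5. Small healthy follicles gave 6.3, 5.9, 5.9, 6.0 and 6.0 with rounded cells and 6.3, 5.9, 6.0, 6.2 and 5.8 with columnar cells. The atretic values were high as a group, with 3 of 5 above every small healthy follicle, but the groups overlapped. The means were 6.44 ± 0.230 in atretic (SD, n = 5) and 6.03 ± 0.177 in small healthy follicles (n = 10). The difference of 0.41 ± 0.107 (SE), or 1.33-fold, passed (95% interval 0.18 to 0.64, limma adjusted p = 0.0116). Against the rounded follicles alone it was 0.42, with an adjusted p of 0.0850. In a bulk sample, fewer cells of a type and less RNA per cell cannot be told apart, and this holds for every difference given here.

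On the brighter FZD1 probe set, atretic follicles gave 7.6, 8.2, 8.0, 8.4 and 8.5. Rounded follicles gave 7.3, 7.9, 8.3, 7.8 and 7.9, and columnar follicles 7.2, 8.0, 7.4, 8.0 and 7.5. Replicate 1 was the lowest follicle in each of these 3 groups, and the groups overlapped. The difference had the same size, 0.41, with a wider spread (SE 0.182, 95% interval 0.02 to 0.80), and did not pass (limma adjusted p = 0.0923). Without atretic replicate 1 the difference was 0.55 (adjusted p = 0.0446), and without rounded replicate 3 it was 0.47 (adjusted p = 0.0432). This probe set passed in 3 of 26 alternative fits, over which the limma adjusted p ranged from 0.0432 to 0.346.

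Although both FZD1 probe sets had the same mean difference, they ranked the follicles differently within groups. The deviations from the group means correlated at r = -0.50 over the 19 arrays, which share the normalization. Replicate 1 of the atretic, rounded and columnar groups was the lowest on the brighter probe set and the highest on the dimmer one. The detected GSK3B probe sets, by contrast, correlated at r = 0.69. The difference between these r values was not tested.

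**Figure D2:**
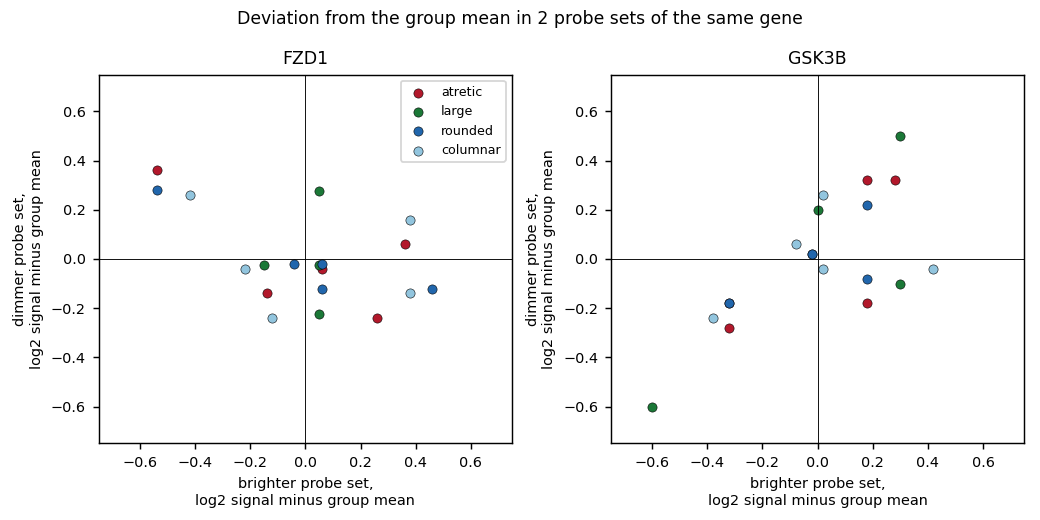
Deviation of each array from its group mean on the brighter (horizontal axis) and dimmer (vertical axis) probe set of FZD1 (left) and GSK3B (right), in log2 units, 19 arrays coloured by group; coincident points overlap. The FZD1 points run downwards (r = -0.50) and the GSK3B points upwards (r = 0.69).

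In large follicles the FZD1 probe sets gave no difference that passed. The brighter one stood at 7.9, 7.9, 7.9 and 7.7 and the dimmer one at 5.8, 6.1, 5.6 and 5.8, both within or close to the small healthy range. Their differences from small healthy follicles were 0.12 (95% interval -0.25 to 0.49, limma adjusted p = 0.693) and -0.21 (-0.44 to 0.03, adjusted p = 0.269). Between atretic and large follicles, which differ in health, size and kit, the dimmer FZD1 probe set did not overlap. Its difference was 0.62 (95% interval 0.30 to 0.93, limma adjusted p = 0.141). How many of all probe sets tested separate atretic from large follicles was not counted. None of the 15326 probe sets tested passed in that comparison (0%), and 2763 had an unadjusted p under 0.05. With all 19 arrays in 1 limma fit this FZD1 difference had an adjusted p of 0.0451, the only 1 of 19 alternative fits in which it passed. The order of the means on the dimmer probe set was atretic, columnar, rounded and large. Atretic follicles overlapped both small healthy groups but not the large ones, and the columnar, rounded and large groups overlapped each other.

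FZD4 was close to the detection limit, at 3.2 to 3.8 in atretic, 3.7 to 4.0 in large, 3.1 to 4.3 in rounded and 3.3 to 4.2 in columnar follicles. It averaged 3.46 ± 0.241 in atretic follicles (SD, n = 5) and 3.75 ± 0.392 in small healthy ones (n = 10), a difference of -0.29 that did not pass (95% interval -0.67 to 0.09, limma adjusted p = 0.217). In large follicles the FZD4 difference was 0.10 (-0.30 to 0.50, adjusted p = 0.766). Every pair of neighbours in the order of FZD4 means overlapped. Of 10 endothelial genes tested, 1 was higher in atretic follicles and none was lower. The mean over these genes was 5.77 to 6.73 in atretic, 5.99 to 6.63 in large and 5.54 to 6.02 in small healthy follicles, and its part in FZD4 was not tested.

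GSK3B, the kinase that marks β-catenin for destruction, was also dim. Its brighter probe set (Bt.18755.2.S1_at) read 3.1 to 3.7 in atretic, 3.2 to 4.1 in large, 3.3 to 3.8 in rounded and 3.4 to 4.2 in columnar follicles. The difference of -0.28 between atretic and small healthy follicles did not pass (95% interval -0.57 to 0.01, limma adjusted p = 0.126), and that between large and small healthy follicles was 0.10 (-0.26 to 0.46, adjusted p = 0.736). The dimmer one (Bt.18755.1.A1_at) met the detection rule only through the large follicles, where it was over 3 on 2 of 4 arrays, so it was not tested between atretic and small healthy follicles, and it entered the comparison of rounded with columnar follicles through the large follicles of that fit. Large replicate 1 was the lowest large follicle on both GSK3B probe sets, at 3.2 and 2.5.

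AXIN2 is a scaffold of the destruction complex and is itself switched on by β-catenin, which makes it a feedback brake and a common readout of the pathway. Large follicles gave 5.4, 5.9, 5.7 and 5.0. Rounded follicles gave 4.7, 5.1, 4.7, 5.2 and 4.9, and columnar follicles 5.1, 4.6, 5.2, 5.2 and 4.8. Large replicates 1 to 3 lay above all small healthy follicles and replicate 4 within them. The AXIN2 means were 5.50 ± 0.392 in large (SD, n = 4) and 4.95 ± 0.237 in small healthy follicles (n = 10). Their difference of 0.55 ± 0.159 (SE), or 1.46-fold, had a 95% interval of 0.21 to 0.89 and an unadjusted p of 0.00341 in limma. After adjustment over 15570 probe sets p was 0.0680, so AXIN2 did not pass. Without large replicate 4 the difference was 0.72 (adjusted p = 0.0424), the only 1 of 26 alternative fits in which it passed. Without large replicate 2 and columnar replicate 1, which have the most CYP19A1, it was 0.43 (adjusted p = 0.182).

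Atretic follicles spread widely in AXIN2, at 5.2, 4.5, 5.1, 5.2 and 5.7. They reached both below and above the small healthy range, and the difference of 0.19 did not pass (95% interval -0.15 to 0.53, limma adjusted p = 0.363). The order of AXIN2 means was large, atretic, columnar and rounded, and each pair of neighbours overlapped.

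CTNNB1 encodes β-catenin. It varied little, at 9.4, 9.6, 9.5, 9.6 and 9.7 in atretic and 9.7, 9.6, 9.5 and 9.5 in large follicles. Rounded follicles gave 9.5, 9.9, 9.7, 9.8 and 9.8, and columnar follicles 9.8, 9.7, 9.6, 9.7 and 9.9. The 4 groups overlapped within a range of 0.5. The mean was 9.56 ± 0.114 in atretic, 9.58 ± 0.0957 in large and 9.74 ± 0.127 in small healthy follicles. The difference between atretic and small healthy follicles was -0.18 (95% interval -0.34 to -0.02, limma adjusted p = 0.0812), and that between large and small healthy ones was -0.17 (-0.34 to 0.01, adjusted p = 0.234). These 2 comparisons share the small healthy follicles. Without rounded replicate 1, the lowest small healthy follicle, the atretic CTNNB1 difference was -0.21 and passed (limma adjusted p = 0.0358). In that fit 36.5% of all probe sets tested passed. It was the only 1 of 26 alternative fits in which this CTNNB1 difference passed, and the adjusted p reached 0.251 in the others.

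LEF1 is the DNA-binding partner that carries β-catenin to its targets, and lymphocytes express it too. Large follicles gave 5.1, 4.3, 4.0 and 4.8. Rounded follicles gave 5.3, 5.1, 6.0, 5.2 and 5.2, and columnar follicles 4.5, 5.7, 5.6, 5.3 and 5.3. Large replicates 2 and 3 lay below every small healthy follicle, and the lowest columnar follicle lay within the large range. The LEF1 means were 4.55 ± 0.49 in large (SD, n = 4) and 5.32 ± 0.399 in small healthy follicles (n = 10). The difference of -0.77 ± 0.230 (SE), or 1.71-fold lower, had a 95% interval of -1.26 to -0.28 and an unadjusted p of 0.00434 in limma. With an adjusted p of 0.0747 it did not pass. Without large replicate 1 it was -0.95 (adjusted p = 0.0374), and without columnar replicate 1 it was -0.86 (adjusted p = 0.0451). Of 26 alternative fits, only these 2 passed for LEF1.

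The 4 arrays on which CYP19A1 was detected had the 4 lowest LEF1 values, 4.0 to 4.8, against 5.1 to 6.0 on the other 15 arrays. These 4 were large replicates 2, 3 and 4 and columnar replicate 1. Large replicate 1, without detected CYP19A1, had a LEF1 value of 5.1, equal to the lowest atretic and rounded follicles. Of the 12 member probe sets, LEF1 was the only one whose values on these 4 arrays did not overlap those on the rest. How many of all detected probe sets separate these arrays in the same way was not counted, so the separation is not shown to be particular to LEF1. Of these arrays 3 are large follicles, so size and CYP19A1 move together here, and the part of CYP19A1 in the LEF1 difference was not tested. Without large replicate 2 and columnar replicate 1, the pair with the most CYP19A1, the LEF1 difference was -0.78 (adjusted p = 0.104). The mean over 8 granulosa cell genes was 6.76 to 8.42 in large follicles and 6.89 to 7.88 in small healthy ones. Of these 8 genes, 0 passed as higher and 1 as lower in large follicles. The lower one was AMH (5.25 against 5.91, limma adjusted p = 0.0332), while CYP19A1 differed by 1.495 and did not pass (adjusted p = 0.109). Without large replicate 2 and columnar replicate 1, AMH did not pass either. The mean over 11 immune cell genes was 4.16 to 5.07 in large follicles and 3.36 to 4.41 in small healthy ones.

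**Figure D3:**
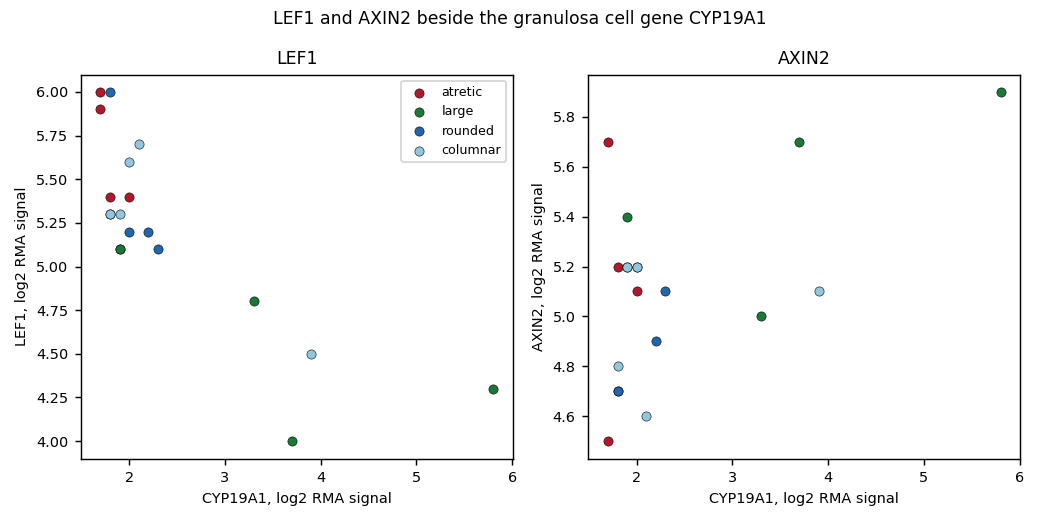
Log2 signal of LEF1 (left) and AXIN2 (right) on the vertical axes against that of CYP19A1 on the horizontal axis, 1 point for each of the 19 arrays, coloured by group; coincident points overlap. The 4 arrays with CYP19A1 over 3 have LEF1 values of 4.0 to 4.8, and on AXIN2 they overlap the rest.

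Atretic follicles held LEF1 at 5.4, 5.9, 5.4, 5.1 and 6.0, all within the small healthy range. The difference was 0.24 (95% interval -0.18 to 0.66, limma adjusted p = 0.358). Between atretic and large follicles LEF1 had the greatest difference of the 10 member probe sets tested, 1.01 ± 0.254 (SE), with 4 of 5 atretic follicles above every large one (95% interval 0.44 to 1.58, adjusted p = 0.142). The order of LEF1 means was atretic, rounded, columnar and large, and each pair of neighbours overlapped.

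CCND1 encodes cyclin D1, which drives the entry of cells into the division cycle and is a target of β-catenin in many tissues. Atretic follicles gave 3.2, 3.2, 3.2, 3.1 and 3.0. Rounded follicles gave 3.3, 3.7, 3.6, 3.6 and 4.1, and columnar follicles 3.9, 3.5, 3.4, 3.5 and 3.6. All 5 atretic follicles lay below all 10 small healthy ones. How many of all probe sets tested separate these groups completely was not counted, so the separation is not shown to be particular to CCND1. The CCND1 means were 3.14 ± 0.0894 in atretic (SD, n = 5) and 3.62 ± 0.235 in small healthy follicles (n = 10). The difference of -0.48 ± 0.110 (SE), or 1.39-fold lower, passed (95% interval -0.71 to -0.25, limma adjusted p = 0.00658). Against the rounded follicles alone it was -0.52, with an adjusted p of 0.0623. The atretic values stood at the detection limit, with 4 of 5 over 3.

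The 17 cell division genes tested beside CCND1 all fell in atretic follicles, with a median log2 difference of -2.18 against 0.01 over all probe sets tested. Their mean ranged from 4.47 to 5.27 in atretic and from 5.71 to 7.63 in small healthy follicles. All 11 immune cell genes rose, with a median difference of 1.12, and their mean ranged from 4.46 to 5.73 in atretic and from 3.36 to 4.41 in small healthy follicles. Of 7 steroidogenic theca genes tested 0 passed as higher and 1 as lower, and of 7 granulosa cell genes 1 and 2. Of 9 smooth muscle genes 3 passed as higher and 1 as lower, and of 8 fibroblast genes 1 and 0. Over all probe sets tested 31.9% passed. The part of any of these genes in the CCND1 and FZD1 differences was not tested.

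In large follicles CCND1 read 3.3, 3.9, 3.6 and 3.2, with replicate 4 below every small healthy follicle and the others within their range (difference -0.12, 95% interval -0.43 to 0.19, limma adjusted p = 0.632). The order of CCND1 means was rounded, columnar, large and atretic. Large and atretic follicles overlapped at 3.2 (difference of atretic from large -0.36, adjusted p = 0.235).

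MYC is a transcription factor of cell growth and a target of β-catenin in the gut. It also varied little, at 8.6 to 8.8 in atretic, 8.4 to 8.7 in large, 8.7 to 9.0 in rounded and 8.4 to 9.0 in columnar follicles. The MYC difference between atretic and small healthy follicles was -0.03 (95% interval -0.22 to 0.16, limma adjusted p = 0.820), and that between large and small healthy follicles was -0.20 (-0.42 to 0.02, adjusted p = 0.256). All 4 groups overlapped.

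**Figure D4:**
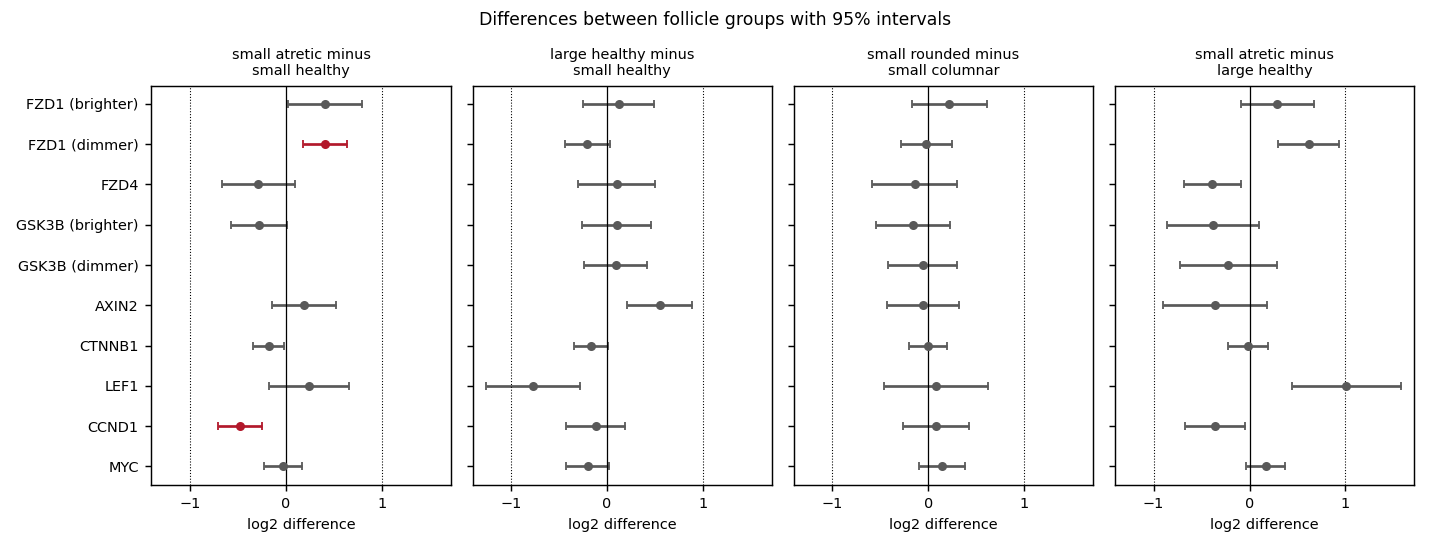
Log2 difference (points) with its 95% interval (bars) for the member probe sets tested in each of 4 comparisons; red marks an adjusted p under 0.05, and dotted lines mark 2-fold. Dimmer FZD1 (0.41) and CCND1 (-0.48) are red between atretic and small healthy follicles, and no interval but those of LEF1 reaches 2-fold.

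Of the 9 member probe sets tested between atretic and small healthy follicles, 2 passed (22.2%), 1 higher and 1 lower. Of all 15470 probe sets tested there, 31.9% passed, 16.9% higher and 15.1% lower. The 95% intervals of the 9 member probe sets all excluded a 2-fold difference, as did 87.8% of those of all probe sets tested. Of the 9 member intervals, 4 excluded a 1.5-fold difference. The share of all probe sets that excluded a 1.5-fold difference was not counted in any comparison. Between large and small healthy follicles 0 of the 10 member probe sets tested passed. Of all 15570 probe sets tested there, 3.58% passed, 2.59% higher and 0.983% lower. The unadjusted p in limma was under 0.05 for 2 of the 10 member probe sets and for 3798 of the 15570. Here 9 of 10 member intervals excluded a 2-fold difference, all but that of LEF1, beside 91.1% over all probe sets tested. A 1.5-fold difference was excluded by 8 of the 10. Leaving out large replicate 2 and columnar replicate 1 left both counts of members at 2 and 0.

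Rounded and columnar small healthy follicles, extracted with the same kit, differed in no member. Their differences lay between -0.16 and 0.22, and CTNNB1 had the same mean of 9.74 in both (95% interval of the difference -0.20 to 0.20). All 10 member intervals excluded a 2-fold difference, beside 95.6% over all probe sets tested, and 8 of 10 excluded a 1.5-fold one. Over all 15570 probe sets 0% passed in limma, where the smallest adjusted p was 0.996 and 360 probe sets had an unadjusted p under 0.05.

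The members differed in how much follicles of 1 group varied. The pooled SD within groups was 0.122 for CTNNB1 and 0.149 for MYC, lower than for most of the 15722 detected probe sets, of which 8.59% and 19.7% had lower ones. It was 0.233 for CCND1 and 0.203 for dimmer FZD1, near the median of 0.219. AXIN2 at 0.336 and LEF1 at 0.426 were among the more variable, with 78.3% and 88.3% of detected probe sets below them. The LEF1 values covered 2.0 log2 units over the 19 arrays.

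Within groups, the named genes whose deviations from the group means ran most like those of a member, among 9718 detected probe sets of other named genes, were found for the brightest probe set of each. For LEF1 they were LOC511617 (r = 0.86) and FANCG (0.85), for AXIN2 RPS6KL1 (0.80) and SRPX2 (0.79), and for CCND1 RNF123 (0.82) and AMD1 (0.80). For CTNNB1 they were DR1 (0.83) and ACSL3 (0.83), and for MYC RPL27A (0.84) and C2CD5 (0.82). For FZD1 they were GNB4 (0.86) and EVA1B (0.84), for FZD4 TONSL (0.84) and MUL1 (0.83), and for GSK3B MAL2 (0.89) and NNT (0.89). Each r is over 19 arrays that share the normalization, and is the highest of many.

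The rest of the pathway was read from 6 lists of 122 genes, of which 64 had a named probe set. Between atretic and small healthy follicles 21 of 53 genes tested passed (39.6%), 9 higher and 12 lower, beside the background of 31.9% for probe sets. Among receptors, none of LRP5 (0.02), ROR2 (0.14) and LGR4 (0.04) passed. Among 8 ligands and secreted antagonists WNT2B, a ligand, was lower in atretic follicles (log2 difference -0.57, limma adjusted p = 0.0460).

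Of 12 genes of the destruction complex, 4 fell and 1 rose in atretic follicles. PPP2CA, the catalytic subunit of protein phosphatase 2A, differed by -0.34 (limma adjusted p = 0.00613), and its regulatory subunits PPP2R5C and PPP2R5A by -0.40 and 0.27. FBXW11, a ubiquitin ligase subunit that recognises phosphorylated β-catenin, differed by -0.35. These genes have many roles beyond the Wnt pathway. Without columnar replicate 1, WNT2B, PPP2R5A and GSK3A, the other kinase of the GSK3 pair and the fourth gene that fell (-0.19, adjusted p = 0.0454), no longer passed, which left 3 genes of the complex lower and 0 higher. GSK3A was named after its values were seen.

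Of 14 nuclear partners of β-catenin, 2 rose and 4 fell. CTNNBIP1, an inhibitor that keeps β-catenin from TCF and LEF factors, was at 8.10 in atretic and 7.30 in small healthy follicles, and both of its probe sets passed (log2 difference 0.80 on the brighter, limma adjusted p = 0.00187). RUVBL1, an ATPase of chromatin complexes, fell by 0.75, SMARCA4, a chromatin remodeller, by 0.54, and TLE4, a corepressor, by 0.34, the last near the detection limit.

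Of 8 further targets and feedback genes 4 rose and 2 fell. BIRC5, which also acts in cell division, averaged 4.30 in atretic and 6.80 in small healthy follicles (difference -2.50, limma adjusted p = 0.00156). APCDD1, a membrane inhibitor of Wnt signalling, averaged 6.20 in atretic and 4.54 in small healthy follicles (1.66, adjusted p = 0.00291). CD44, a hyaluronan receptor that immune cells also carry, rose by 0.79, and JUN, an immediate early transcription factor, by 0.71. Of 8 adherens junction genes, CDH3, a cadherin, rose by 0.94 and CTNNAL1, a relative of α-catenin, by 0.63, while JUP, the β-catenin relative plakoglobin, fell by 0.74.

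**Figure D5:**
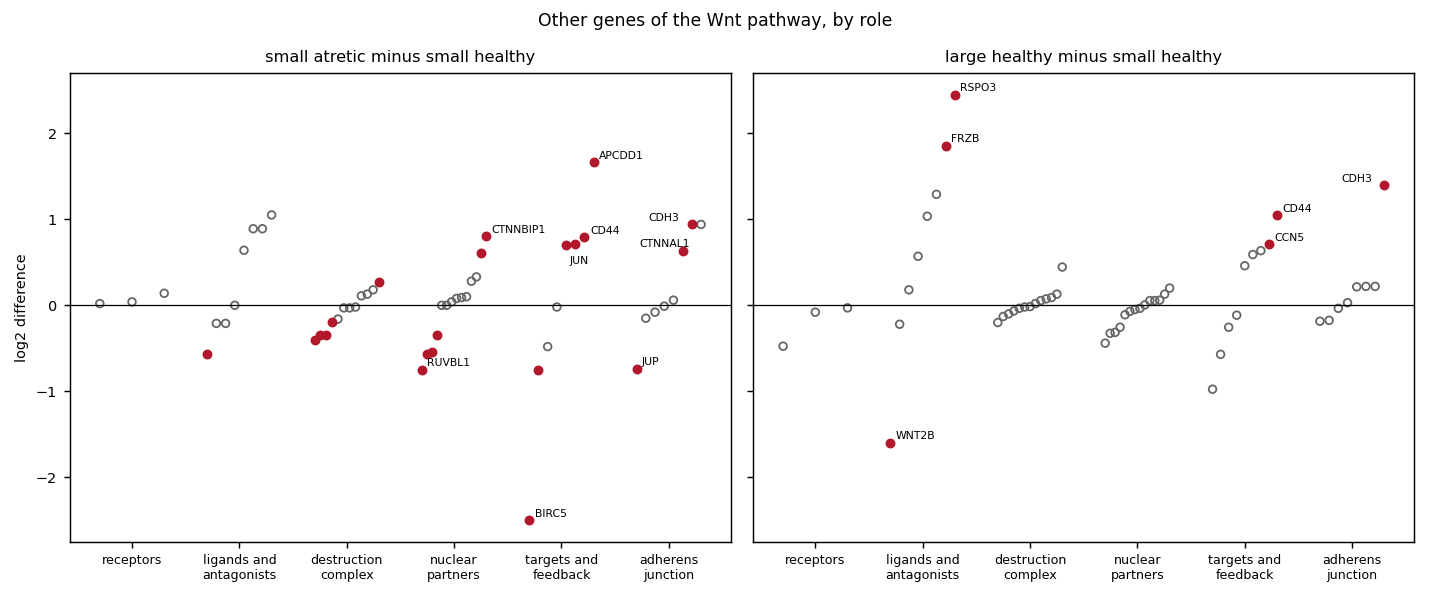
Log2 difference (vertical axis) of each tested gene of 6 Wnt pathway lists, atretic minus small healthy (left) and large minus small healthy follicles (right); filled red points have an adjusted p under 0.05, and the genes given in the text are labelled where the difference is 0.6 or more in size. On the left 9 genes are higher and 12 lower, and on the right 5 are higher and 1 is lower.

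The pathway genes that passed in large follicles all encode secreted or cell-surface proteins, which the lists of ligands, antagonists and receptors hold by choice. Of 55 genes tested 6 passed (10.9%), 5 higher and 1 lower, beside the background of 3.58% for probe sets. Of 8 ligands and antagonists, RSPO3, which strengthens the response to Wnt, averaged 6.5 in large and 4.05 in small healthy follicles, FRZB, a secreted Wnt antagonist, 7.42 and 5.57, and WNT2B 5.08 and 6.67. None of 3 receptors, 13 genes of the destruction complex and 14 nuclear partners passed. CD44 rose among 9 targets, as did CCN5, whose mean of 2.69 in small healthy follicles was under the detection limit, and CDH3 rose among 8 adherens junction genes (1.40, limma adjusted p = 0.0147). FRZB, RSPO3, WNT2B, CDH3 and CD44 were named in the study on these same arrays, and the lists were chosen with that known. They are therefore not independent evidence of a direction or of a shared kind of protein. The share of 10.9% is not evidence of an excess over the background. Without large replicate 2 and columnar replicate 1 CDH3 no longer passed, and the other 5 genes did. Among marker genes of other cells, the median log2 difference of large from small healthy follicles was 0.72 over 9 smooth muscle genes (2 higher, 0 lower), 0.49 over 10 endothelial genes (1 higher, 0 lower), 0.52 over 11 immune cell genes (2 higher, 0 lower) and 0.30 over 8 fibroblast genes (2 higher, 0 lower), against -0.005 over all probe sets tested. For the 17 cell division genes it was -0.95, and 0 of them passed. The mean over the smooth muscle genes was 6.63 to 7.47 in large follicles and 5.97 to 6.87 in small healthy ones, and that over the endothelial genes was 5.99 to 6.63 in large follicles and 5.54 to 6.02 in small healthy ones. Their part in the pathway differences was not tested.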

How the data were processed

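The theca interna of 19 bovine follicles was measured on single-channel Affymetrix arrays. The deposited values are log2 RMA signals, made by the authors in Partek (version 6.5 in the submitters' processing notes) with quantile normalization and given to 1 decimal, which sets the finest step of any value. Whether all arrays were normalized together, and the genome build, are not given in the sources used here. Groups came from the sample records and every array column was used. Gene names came from the platform annotation given with the arrays (13317 probe sets with 1 symbol, 86 with several and 10724 with none), and all 12 member probe sets were found under the same symbol in a newer gene table.

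Probe sets detected in any follicle group of the fit (signal above 3 in 50% or more of its follicles) were tested, without the 111 array controls, by limma 3.58.1 in R 4.3.3 (moderated, unpaired, two-sided), with Benjamini-Hochberg adjustment over all of them. Small healthy follicles were pooled against atretic and against large follicles. Rounded and columnar follicles were compared within a fit of the 3 healthy groups, so the large follicles also counted towards detection there. Where no error is named, the value after ± is an SD. Genes with several probe sets on a pathway list were read on the brightest tested. The text names all member probe sets, up to 4 genes of each pathway list with the smallest p among those that passed, and the 2 genes most like each member. The members and lists were chosen with earlier results of these data known. The fit was tested on simulated data with independent normal noise. Of simulated log2 changes of 0.4, 44% passed between atretic and small healthy follicles and 22% between large and small healthy ones. Of changes of 1.3, 96% and 94% passed. Differences of the smaller size could thus often be missed. Alternatives were another detection limit or none, a median centring, a second quantile normalization, a plain linear model, other poolings, a 2-fold limit, the replicate number as a block and each array left out. The pathway lists were also counted without large replicate 2 and columnar replicate 1, a choice made after the data had been seen.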

Additional observations from a re-analysis of the deposited data

Results flagged for a closer look

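Of 40 groups of values, 1 for each detected member probe set in each follicle group, 3 had an end value far from its neighbours, and chance flags about 1 in 20. LEF1 was 6.0 in rounded replicate 3, against 5.1 to 5.3 in the other rounded follicles. Dimmer FZD1 (Bt.26635.1.S1_at) was 6.3 in rounded replicate 1, against 5.9 to 6.0. Brighter FZD1 (Bt.26635.2.S1_at) was 7.7 in large replicate 4, against 7.9 in each other large follicle, a gap of 2 steps of the deposited values.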

How the results depend on the processing

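Over 906 alternatives for the member probe sets, 894 stayed on their side of the threshold, 8 newly passed, 4 no longer passed and 0 values that passed changed sign. In 34 of them a difference that passed in neither setting had another sign, with a change to or from 0 counted too. CTNNB1 between rounded and columnar follicles, with a main difference of 0, was among these. Dimmer FZD1 and CCND1 no longer passed between atretic and small healthy follicles against rounded follicles alone (FZD1 0.42, adjusted p = 0.0850; CCND1 -0.52, adjusted p = 0.0623) or with a 2-fold limit. Over the alternatives the adjusted p of CCND1 ranged from 0.00273 to 0.0623, that of dimmer FZD1 from 0.00601 to 0.0850, that of LEF1 in large follicles from 0.0374 to 0.278 and that of AXIN2 from 0.0424 to 0.302.

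Between atretic and small healthy follicles, 4939 probe sets passed, against 569 with a 2-fold limit, 244 against rounded follicles alone, and 2978 (without atretic replicate 5) to 5690 (without rounded replicate 1) with 1 array left out. Between large and small healthy follicles 557 passed, against 339 with a plain linear model, 110 with a 2-fold limit, 159 with the arrays highest in CYP19A1 left out, 18 with only rounded and 258 with only columnar follicles as controls, and 154 (without large replicate 4) to 982 (without rounded replicate 1) with 1 array left out. Between atretic and large follicles 0 passed, against 122 with all 19 arrays in the fit and 0 to 125 with 1 array left out (125 without large replicate 4). The median correlation of deviations was -0.07 to 0.07 between same-numbered follicles and -0.09 to 0.01 between differently numbered ones. The highest single values were 0.57 and 0.51. Since a comparison held only 4 to 10 same-numbered pairs, these values do not settle whether the replicate numbers pair the follicles. With the replicate number as a block 341 passed between large and small and 4777 between atretic and small healthy follicles, where brighter FZD1 then passed (0.41, adjusted p = 0.0442). The cause of these changes was not tested.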
